A study of Mus musculus with 6 samples.

Results

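The gene table of a mouse dentate gyrus RNA-seq study held 239 rows without a gene identifier among its 54040 rows. These rows are loci that were assembled from the reads and carry only a running number, coordinates, a length and, for some, the names of protein domains. All rows with the identifier that the table gives to assembled loci were taken, with no use of their values, and each is called here by the running number in that identifier (locus 26). Of the 239 loci, 147 lay on chromosomes, 91 on patch or alternate sequences of the genome assembly and 1 on an unplaced scaffold.

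The study removed YTHDF2, a reader protein of N6-methyladenosine in RNA, and compared 3 cKO libraries with 3 Ctrl libraries. Per the labels, the cKO libraries came from dentate gyrus lacking YTHDF2 and the Ctrl libraries from negative control dentate gyrus. All 6 were total RNA of C57BL/6 mice at postnatal day 40, labelled as dentate gyrus granule cells. The sources used here do not give the Cre driver or virus, the sex or the number of animals behind a library. The labels do not say that replicates are separate animals, so p-values measure the spread between these libraries, which may be technical.

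The libraries held between 16794642 and 19190101 counts. Ythdf2, the targeted gene, had 960, 946 and 1011 counts in the cKO libraries, against 635, 1158 and 1319 counts in the libraries labelled Ctrl. At Ythdf2 the library labelled Ctrl 1 was the lowest of all 6, which goes against its label (log2 fold change -0.064 ± 0.15 SE, edgeR adjusted p = 0.882). An exact two-sided permutation test of the Ythdf2 counts per 1000000 (CPM) gave p = 1, where the smallest p of this design is 0.1. At Efr3b, a gene picked after its values were seen, the library labelled Ctrl 1 stood with the other Ctrl libraries. It had 149 CPM there, beside 119 CPM in Ctrl 2, 134 CPM in Ctrl 3 and 790 to 817 CPM in the cKO libraries. The part of the gene that was deleted is not given, so a count over the whole gene is an incomplete check. Without the library labelled Ctrl 1 the log2 fold change of Ythdf2 was -0.29 (edgeR adjusted p = 0.00951). That library is singled out for its low Ythdf2 count, so this value is no independent check. Without Ctrl 2 it was 0.060 (edgeR adjusted p = 0.905) and without Ctrl 3 it was 0.069 (adjusted p = 0.888). All 7 granule cell markers were abundant, at 32.7 to 134 FPKM as group means, with Prox1 at 61.5 FPKM in cKO and 63.6 FPKM in Ctrl. Markers of other cells were abundant too, with the astrocyte gene Aldoc at 212 FPKM in cKO and 236 FPKM in Ctrl, the oligodendrocyte gene Mbp at 83.1 and 84.3 FPKM and the interneuron gene Sst at 76.1 and 73.4 FPKM. Choroid plexus markers were low, namely Ttr (1.33 FPKM in cKO, 1.45 FPKM in Ctrl), Kl (2.46 and 2.37 FPKM) and Folr1 (0.00861 and 0.0311 FPKM). By edgeR, 3 of 4 astrocyte markers fell (log2 fold change -0.21 to -0.15), as did 2 of 4 microglial markers (-0.35 each) and the granule cell marker Stxbp6 (-0.29). Pitpnm2 of granule cells (0.27), Fibcd1 of CA1 (0.30) and Csf2rb2 of mossy cells (0.69) rose. Any part of these cell types in the values of the loci was not tested. In bulk tissue, fewer cells of a type and less RNA per cell cannot be told apart.

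As background, transcript assembly joins spliced reads into models and reports those that match no gene of the annotation it was given. Such models can be unlisted noncoding RNAs, RNA from the far side of a promoter that is used in both directions, extended ends of known genes, endogenous retroviruses and LINE-1 elements, or copies of known genes on assembly patches. Patch and alternate sequences are corrected or variant versions of stretches that the primary chromosomes also hold, so a read can match both.

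Reference sequences at 6 of the loci on chromosomes are shown first. Stretches of 160 bases of GENCODE M21 transcripts (build GRCm38) are given for 3 loci on chromosome 17 that matched a noncoding transcript in strand, in both ends to within 100 bases and in length. Each stretch is centred on the first splice junction, with the end of exon 1 in capitals. The transcript of locus 50 (chr17:56241716-56242805, plus strand, RefSeq A230051N06Rik) has 2 exons and 749 bases, against 738 bases in the locus. The transcript of locus 63 (chr17:43149362-43158291, minus strand, RefSeq E130008D07Rik) has 6 exons and 3416 bases, against 3418 bases in the locus. The transcript of locus 65 (chr17:78199256-78200025, minus strand, RefSeq Gm32282) has 2 exons and 528 bases, against 508 bases in the locus.
Locus 50 transcript, bases 20 to 179: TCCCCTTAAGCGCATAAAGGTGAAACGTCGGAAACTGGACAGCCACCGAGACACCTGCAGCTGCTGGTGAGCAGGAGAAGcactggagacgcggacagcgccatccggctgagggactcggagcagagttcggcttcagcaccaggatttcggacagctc
Locus 63 transcript, bases 443 to 602: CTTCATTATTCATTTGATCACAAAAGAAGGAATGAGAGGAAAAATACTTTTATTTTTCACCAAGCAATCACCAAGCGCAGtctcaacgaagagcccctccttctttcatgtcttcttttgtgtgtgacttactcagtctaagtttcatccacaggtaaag
Locus 65 transcript, bases 353 to 512: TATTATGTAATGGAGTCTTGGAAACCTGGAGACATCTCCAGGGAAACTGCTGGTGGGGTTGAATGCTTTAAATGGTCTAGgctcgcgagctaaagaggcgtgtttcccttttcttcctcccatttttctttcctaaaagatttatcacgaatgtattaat

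The other 3 are promoters of annotated genes, from RefSeq (build GRCm38.p6), each 300 bases in the direction of the gene, from 250 bases before its start to 50 after. They are the promoters that a locus of high level enters on the opposite strand. Capitals mark the bases that lie inside the assembled locus. The promoter of Med26, a Mediator subunit gene (chr8:72548261-72548560, minus strand), shares 162 bases with locus 130. The promoter of Adgrb2, a brain adhesion G protein-coupled receptor gene (chr4:129984620-129984919, plus strand), shares 236 bases with locus 97. The promoter of Selenoi, which codes for an ethanolamine phosphotransferase (chr5:30232331-30232630, plus strand), shares 120 bases with locus 104.
Med26 promoter: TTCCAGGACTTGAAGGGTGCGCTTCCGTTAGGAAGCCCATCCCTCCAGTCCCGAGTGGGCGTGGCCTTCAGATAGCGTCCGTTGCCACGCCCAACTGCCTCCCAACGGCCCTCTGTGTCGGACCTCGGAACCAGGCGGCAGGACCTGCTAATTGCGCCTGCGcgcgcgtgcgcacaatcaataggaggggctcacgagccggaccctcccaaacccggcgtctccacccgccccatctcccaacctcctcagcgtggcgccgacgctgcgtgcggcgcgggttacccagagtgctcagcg
Adgrb2 promoter: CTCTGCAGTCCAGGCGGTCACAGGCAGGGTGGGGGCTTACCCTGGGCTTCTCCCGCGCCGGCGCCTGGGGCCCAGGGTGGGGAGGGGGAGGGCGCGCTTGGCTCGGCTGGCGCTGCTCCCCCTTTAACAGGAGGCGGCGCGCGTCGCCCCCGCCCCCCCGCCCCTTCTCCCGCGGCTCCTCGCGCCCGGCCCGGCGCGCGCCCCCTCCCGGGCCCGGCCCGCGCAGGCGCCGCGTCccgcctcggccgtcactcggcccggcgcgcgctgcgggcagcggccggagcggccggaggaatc
Selenoi promoter: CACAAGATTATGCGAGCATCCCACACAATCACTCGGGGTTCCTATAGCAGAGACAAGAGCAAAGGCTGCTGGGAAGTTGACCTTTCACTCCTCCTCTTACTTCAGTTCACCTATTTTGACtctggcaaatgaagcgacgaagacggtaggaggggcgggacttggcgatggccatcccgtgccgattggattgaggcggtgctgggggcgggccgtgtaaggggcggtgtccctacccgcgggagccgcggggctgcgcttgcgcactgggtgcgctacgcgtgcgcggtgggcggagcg

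In all, 53 RefSeq promoters of 51 genes shared bases with 46 loci on chromosomes. The GC box GGGCGG, searched on both strands, was in 31 of them (58.5%), against 35.7% of 32851 RefSeq promoters and 60.7% of 13956 promoters of the protein-coding genes that entered the test. CCAAT was in 23 (43.4%), against 37.4% and 37.3%, and TATAAA in 1 (1.89%), against 13.6% and 7.15%. The median GC content was 61.7% in the 53 promoters, 60.7% in those of tested protein-coding genes and 52.7% in all. Of the 53, 21 belong to the nearest annotated gene where that is protein-coding and begins within 250 bases of a locus upstream of it, and 18 of these 21 (85.7%) hold a GC box. GGGCGG can overlap further copies of itself in these windows and was scored once per promoter. All 3 promoters printed above hold a GC box, and the one of Selenoi also holds CCAAT.

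Most loci lay outside annotated genes, which follows largely from how such rows arise, as models that match no annotated gene. Among those on chromosomes and the scaffold, 5 overlapped an annotated gene of the table, 83 lay within 5 kb of one and 60 lay farther off. The 5 were locus 5 in Mia3, locus 44, locus 45 and locus 58 within the span given for Chd1, and locus 234 on the scaffold. That span is long, chr17:15704967-17394898, for 11917 bases without introns. Inside it, locus 45 starts 17 bases from a same-strand transcript of Gm5165, a GENCODE M21 lincRNA without a row. Within 250 bases of a gene there were 45 loci, of which 40 were upstream of it and 5 downstream. The upstream loci ran on the opposite strand to the gene in 21 cases and on the same strand in 19. Of the 21, 13 were unspliced, as were 17 of the 19. Strands are as the table gives them. The strand setting of the counting is not given, and an unspliced locus has no splice junction to show its strand. Downstream of a gene and on its strand, there was no locus within 1 kb and 7 within 5 kb. Of the 58 upstream loci within 5 kb, 53 had a protein-coding neighbour.

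**Figure D1:**
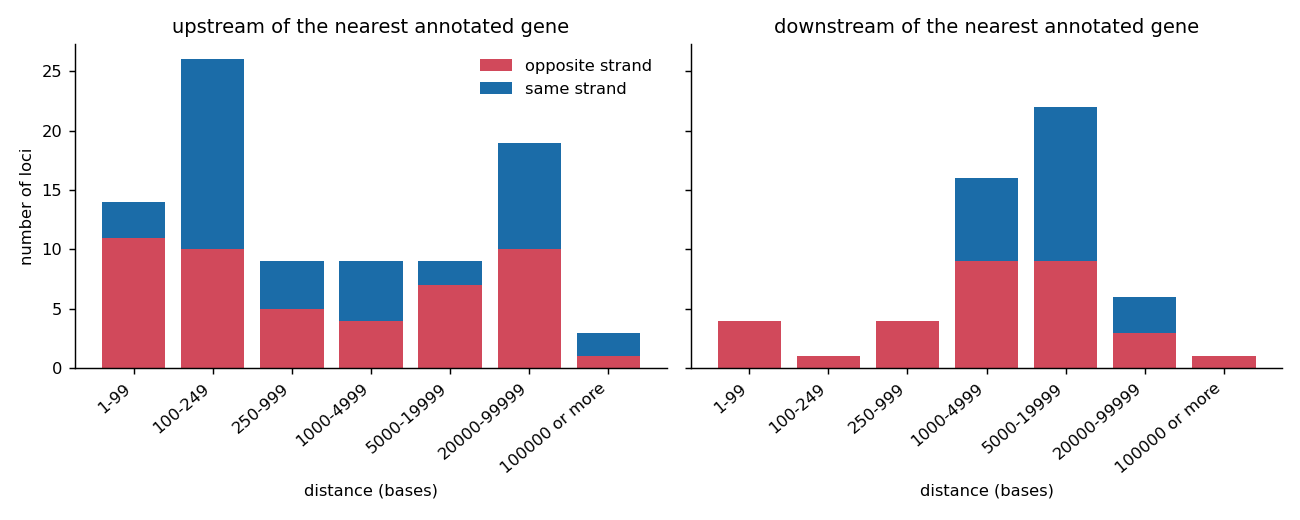
Number of assembled loci on chromosomes by distance in bases to the nearest annotated gene (horizontal axis, unequal bins), upstream of the gene's start (left panel) or downstream of its end (right panel). Bars are split by strand relation, and the 40 loci within 250 bases upstream stand against 5 downstream, all 5 of them on the opposite strand.

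In shape the patch loci differed from those on chromosomes. The table held 0 annotated genes on patch or alternate sequences. Any gene transcribed there could thus appear only as an assembled locus, so the patch loci and those on chromosomes are unlike sets from the start. Length without introns ranged over all loci from 221 to 34463 bases, with a median of 3466 bases on patch sequences and 1914 bases on chromosomes. Every patch locus was spliced, whereas 68 of 147 loci on chromosomes were not. A protein domain was named for 79 of 91 patch loci (86.8%) and for 27 of 147 loci on chromosomes (18.4%). The longest loci were locus 29 (chromosome 14, 34463 bases, unspliced), locus 207 on a patch (19581 bases) and locus 42 (chromosome 17, 18778 bases). The shortest, locus 123, locus 238 and locus 1, had 221, 244 and 271 bases and too few counts for the test.

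Chromosome 17 alone held 27 loci, more than any other. Chromosomes 16 to 19 together held 40, unevenly, with 2, 27, 6 and 5 in that order. Pooled, that is 8.01 loci per 1000 table genes, against 2.20 per 1000 on all other chromosomes. Table genes were incomplete on chromosomes 16 to 19, and the smaller divisor raises their pooled value. The table used here had rows for 64.0% to 78.3% of the GENCODE M21 genes of each of these 4 chromosomes, and for 99.4% to 100% on each other chromosome. On chromosomes 16 to 19, 23 of the 40 loci overlapped a GENCODE M21 gene without a row, 17 of them on chromosome 17, against 0 of 107 loci elsewhere. A transcript of that gene ran on the same strand for 19 of the 23. Elsewhere nearly every GENCODE M21 gene had a row, so the 0 of 107 was largely set in advance. RefSeq genes without a row overlapped 24 of the 40 loci and 38 of the 107. In all, 62 of 147 loci on chromosomes overlapped a RefSeq gene without a row.

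**Figure D2:**
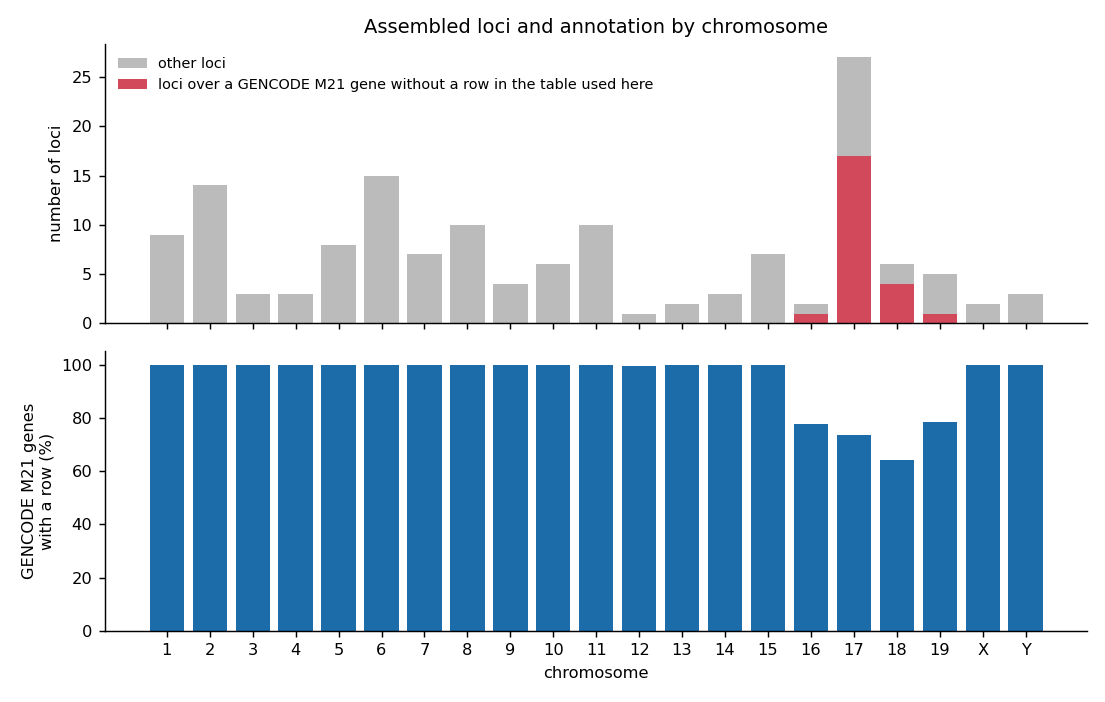
Assembled loci by chromosome. The upper panel gives the number of loci, with those over a GENCODE M21 gene that has no row in the table used here in red, and the lower panel gives the percentage of GENCODE M21 genes that have a row; chromosomes 16 to 19 are the 4 with 64.0% to 78.3%.

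Levels were low throughout. The loci took between 0.155% and 0.171% of the counts of a library, of which those on patch sequences took 0.0504% to 0.0612% and those on chromosomes 0.0981% to 0.111%. Counts were seen at 236 loci, and 3 had none in any library (locus 98, locus 171 and locus 209). The filter on low counts passed 192, namely 72 on patch sequences, 119 on chromosomes and the 1 on the scaffold. Per length, the tested loci had a median of 1.52 FPKM, against 5.94 FPKM for tested protein-coding genes, 1.11 FPKM for tested lincRNA genes and 1.04 FPKM for tested antisense genes.

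The highest level per length belonged to locus 54 on chromosome 17 (chr17:82409868-82410883, plus strand, 692 bases). It carries the C-terminal domain of ribosomal protein SA, the laminin-binding protein of the small ribosomal subunit, and RefSeq places the pseudogene Rpsa-ps7 there. GENCODE M21 has a processed pseudogene there on the minus strand, opposite to the locus. Rpsa itself had 87.7 FPKM in cKO and 102 FPKM in Ctrl (log2 fold change -0.22 ± 0.05 SE, edgeR adjusted p = 0.0182). Locus 54 had 164, 224 and 173 counts in the cKO libraries, against 197, 191 and 207 counts in the Ctrl libraries. Reads of a near-identical parent gene may be split with it, so its level of 15.5 ± 3.21 FPKM in cKO and 16.2 ± 0.682 FPKM in Ctrl (SD, n = 3 each) is uncertain. Next were locus 35 on chromosome 15, under the RefSeq lncRNA Gm19378, at 7.55 ± 1.57 FPKM in cKO and 7.12 ± 0.552 FPKM in Ctrl, and locus 156 on a patch, with glutathione S-transferase domains, at 7.22 ± 3.80 FPKM in cKO and 7.11 ± 2.82 FPKM in Ctrl. The groups overlapped at all 3. The other 7 of the 10 highest were locus 219 (BAALC domain), locus 202 (protein kinase C domains), locus 191 (RanBP1 domain) and locus 159 (Ras domain) on patches, and locus 130, locus 25 and locus 96 on chromosomes, at 5.43 to 6.77 FPKM over all 6 libraries.

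By counts the leading locus was locus 29, which had 2744, 2598 and 3312 counts in the cKO libraries, against 2352, 2949 and 2912 in the Ctrl libraries. It lies 518 bases beyond the end of Xkr6 in the table, on the strand opposite to Xkr6, and the RefSeq model of Xkr6 reaches into it. Its log2 fold change was 0.09 ± 0.07 SE (edgeR adjusted p = 0.559). The locus beside Med26, locus 130, had 1290, 1253 and 1511 counts in cKO libraries and 1021, 1310 and 1283 counts in Ctrl libraries, and the locus beside Adgrb2, locus 97, had 1166, 1110 and 1257 counts in cKO libraries and 895, 1127 and 1129 counts in Ctrl libraries. In both, the library labelled Ctrl 1 was the lowest of the 6, and neither passed the test (log2 fold change 0.18 ± 0.07 SE each, edgeR adjusted p = 0.206 and 0.173). Both passed when the library labelled Ctrl 2 was left out, at 0.28 (edgeR adjusted p = 0.0398) and 0.27 (adjusted p = 0.0441).

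The main comparison asked which loci differed in level between the cKO and Ctrl libraries. Whether the Ctrl libraries share the Cre driver or virus is not given, so its effect cannot be told apart from that of YTHDF2 loss. Of the 192 tested, 3 rose and 2 fell at an edgeR adjusted p under 0.05. That is 2.60% of the tested loci, against 3.95% of all 16928 tested genes, of which 3.07% rose and 0.874% fell. By kind, 4 of 72 patch loci (5.56%) and 1 of 119 loci on chromosomes (0.840%) were called. The groups did not overlap at 28 loci (14.6%), against 22.9% of all tested genes. The median log2 fold change was 0.0062 over patch loci, 0.082 over loci on chromosomes and -0.0010 over all tested genes. Without the patch sequences in the fit the only locus called was locus 26, against 4.51% of the 16856 genes then tested (3.41% rose and 1.1% fell).

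**Figure D3:**
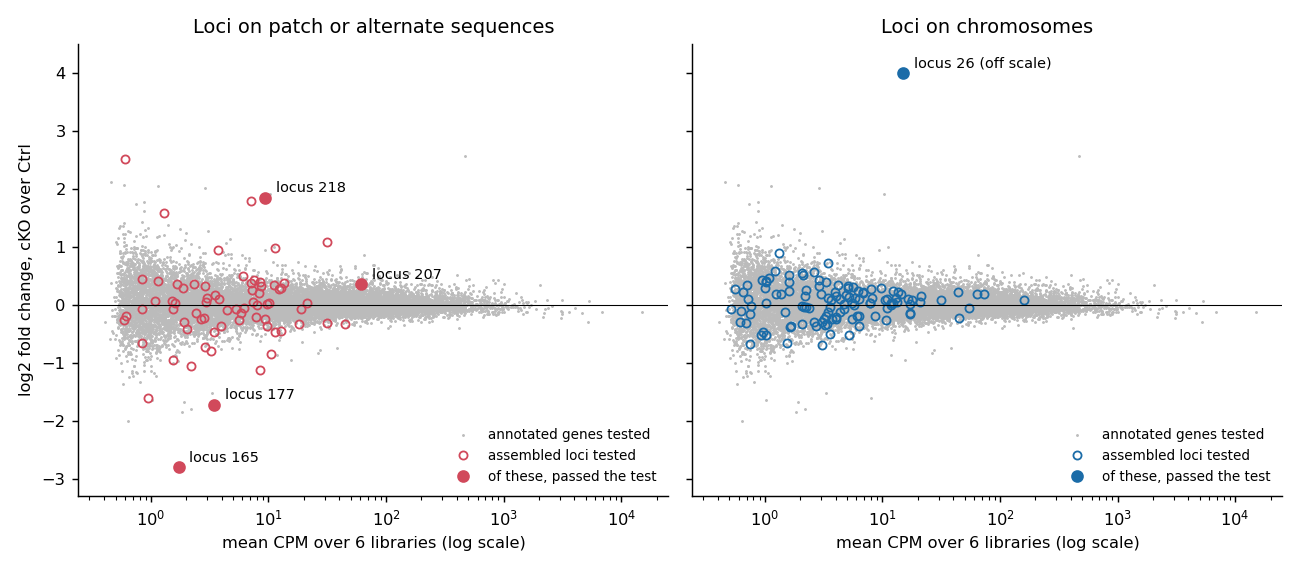
Log2 fold change, cKO over Ctrl, against mean counts per 1000000 (CPM) over the 6 libraries (log axis) for assembled loci on patch or alternate sequences (left) and on chromosomes (right), over all annotated genes tested in grey. Filled circles mark the 5 loci that passed the test; locus 26, at 10.16, is drawn at the upper edge.

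The largest change was at locus 26, an unspliced locus of 4345 bases on the plus strand of chromosome 12 (chr12:3923258-3927602), intergenic in GENCODE M21 and in RefSeq. It had 433, 565 and 555 counts in the cKO libraries, against 0, 1 and 0 counts in the Ctrl libraries. Its level was 6.80 ± 0.926 FPKM in cKO and 0.00453 ± 0.00785 FPKM in Ctrl (SD, n = 3 each), so the cKO level was above the median of tested protein-coding genes. The fitted log2 fold change was 10.16 ± 0.31 SE (edgeR adjusted p = 3.57e-11), a value that depends on the prior count because the Ctrl libraries hold 1 count in all. The summed counts of 1553 in cKO and 1 in Ctrl give a ratio of 1573 when each is divided by the library totals of its group, with an interval of 282 to 62156 at 95% from counting error. It was called under all 17 other settings tried. No other locus was on chromosome 12, and no other locus on a chromosome was called.

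The surroundings of locus 26 differed between the groups as well. Gm9088, a processed pseudogene 3931 bases away, had 12, 10 and 7 counts in the cKO libraries and 0 in each Ctrl library. Dnmt3a, a DNA methyltransferase gene 8815 bases away, had 8.55 FPKM in cKO and 7.45 FPKM in Ctrl (log2 fold change 0.20 ± 0.05 SE, edgeR adjusted p = 0.0288). Pomc, the pro-opiomelanocortin gene 27349 bases away, had 2.10 FPKM in cKO and 0.894 FPKM in Ctrl (log2 fold change 1.24 ± 0.24 SE, edgeR adjusted p = 0.0104). Efr3b, a gene for a plasma membrane scaffold of phosphatidylinositol 4-kinase, lies 34952 bases away and had 76.5 FPKM in cKO and 12.9 FPKM in Ctrl (log2 fold change 2.57 ± 0.06 SE, edgeR adjusted p = 3.42e-12). Gm48001, at 57063 bases, summed to 95 counts in cKO, against 23 in Ctrl (log2 fold change 2.05 ± 0.40 SE, edgeR adjusted p = 0.00985). That distance falls inside the span of a flanking gene named above. Its reads may thus not be separate from those of that gene, as the strand setting of the counting is not given. The ratio of summed counts per library total, cKO over Ctrl, was 1.15 at Dnmt3a, 2.37 at Pomc, 5.96 at Efr3b and 4.18 at Gm48001. Gm9088, Gm48001 and the flanking genes were named after their values were seen. Whether locus 26 is part of a transcript with any of these genes was not tested.

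Of the 4 called patch loci, locus 165 fell most. It carries BTB, Kelch and NADH dehydrogenase domains and had 11, 4 and 7 counts in the cKO libraries, against 94, 30 and 32 counts in the Ctrl libraries. The groups did not overlap, with the library labelled Ctrl 1 well above the other Ctrl libraries (log2 fold change -2.80 ± 0.52 SE, edgeR adjusted p = 0.00758). Without the library labelled Ctrl 1 the log2 fold change was -2.01 (adjusted p = 0.0139), and without cKO 3 the call was lost (adjusted p = 0.0522). On the opposite strand locus 163 shares 6301 bases of span with it and had 13, 8 and 9 counts in cKO libraries and 4, 14 and 17 counts in Ctrl libraries.

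Locus 218, with the B56 domain of protein phosphatase 2A regulatory subunits, had 433, 92 and 235 counts in the cKO libraries, against 57, 81 and 76 counts in the Ctrl libraries. The cKO libraries differed among themselves by more than the lowest of them differed from Ctrl. Its level was 14.6 ± 10.2 CPM in cKO and 4.05 ± 0.706 CPM in Ctrl (SD, n = 3 each; log2 fold change 1.85 ± 0.39 SE, edgeR adjusted p = 0.0153). The call held without any 1 library, though without cKO 1 the log2 fold change was 1.17 (adjusted p = 0.0415), and it was lost with limma-voom (adjusted p = 0.0805). The other 7 loci on the same patch were not called.

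The remaining calls were smaller or less even. The long locus 207, without a named domain, had 1106, 1200 and 1268 counts in the cKO libraries, against 1028, 760 and 1045 counts in the Ctrl libraries (log2 fold change 0.36 ± 0.08 SE, edgeR adjusted p = 0.0302). Its groups did not overlap, and the call was lost on leaving out any 1 of cKO 1, cKO 2, cKO 3, Ctrl 2 and Ctrl 3 (adjusted p between 0.0530 and 0.113). With phosphoglucomutase domains, locus 177 had 22, 25 and 38 counts in the cKO libraries, against 94, 25 and 171 counts in the Ctrl libraries. One Ctrl library lay among the cKO libraries (log2 fold change -1.72 ± 0.45 SE, edgeR adjusted p = 0.0450), and the call was lost without any 1 of cKO 1, cKO 2, cKO 3, the library labelled Ctrl 1 and Ctrl 3 (adjusted p between 0.0737 and 0.180). Without Ctrl 3 its log2 fold change was -1.12.

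**Figure D4:**
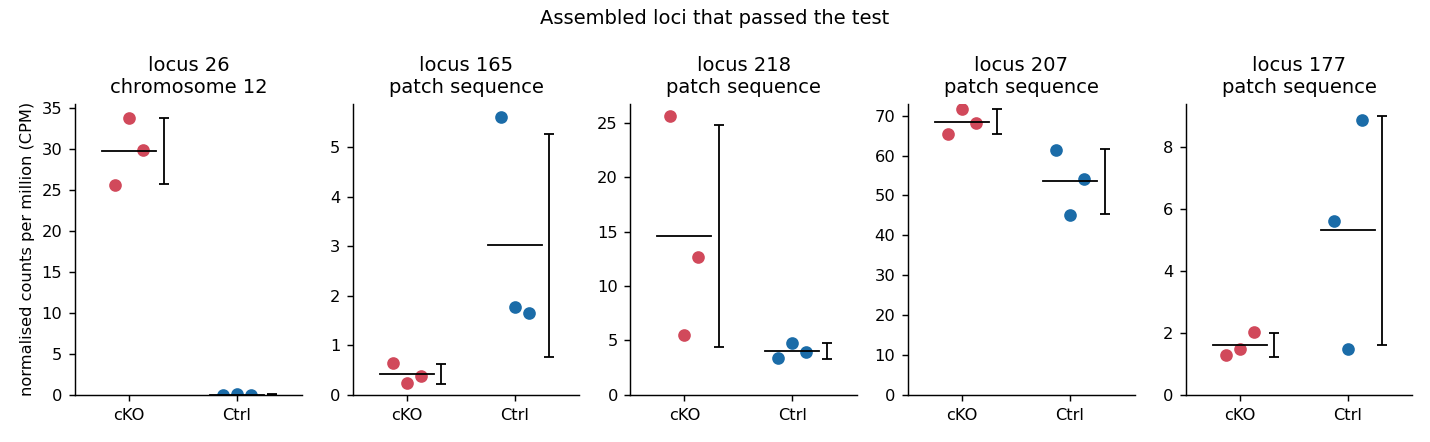
Normalised counts per 1000000 (CPM) of the 5 loci that passed the test, cKO on the left and Ctrl on the right of each panel, with a separate vertical axis from 0 for each locus. Points are libraries, horizontal lines are means and bars are ± 1 SD (n = 3 each); the groups overlap at locus 177 and at no other.

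Just outside the threshold stood locus 184, locus 202, locus 220, locus 175 and locus 118. At locus 184, a patch locus without a domain, the counts were 20, 16 and 17 in cKO libraries and 9, 0 and 0 in Ctrl libraries (log2 fold change 2.52 ± 0.71 SE, edgeR adjusted p = 0.0603). The protein kinase C domain locus 202 had 881, 809 and 512 counts in cKO libraries and 219, 197 and 668 counts in Ctrl libraries, so that Ctrl 3 lay above cKO 3 (adjusted p = 0.0617). The adjusted p was 0.0795 for locus 220 (log2 fold change -0.79) and locus 175 (0.99), and 0.0838 for locus 118 (0.71). Leaving out 1 library brought locus 202 under the threshold (without cKO 3 or Ctrl 3), as it did locus 184 (without the library labelled Ctrl 1) and locus 175 (without cKO 3).

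Patch loci varied more between replicates than loci on chromosomes did. The spread was measured as the chi-square of the counts within groups per degree of freedom, which is near 1 where libraries differ by counting error alone. Over loci with at least 100 summed counts the median was 15.2 for 66 patch loci and 1.96 for 107 loci on chromosomes, against 1.92 for 15428 annotated genes. The value was over 10 at 40 of the 66 patch loci and at 5 of the 107 on chromosomes. Within a group, the highest library was at least 2-fold above the lowest at 44 patch loci (66.7%) and 14 loci on chromosomes (13.1%), against 4.52% of the annotated genes. The 2-fold shares were not matched for depth. The higher chi-square of patch loci held at matched depth. At 100 to 300 summed counts its median was 13.8 for patch loci, 1.78 for loci on chromosomes and 1.38 for protein-coding genes. These are descriptions over loci, which share the 6 libraries, and were not tested.

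**Figure D5:**
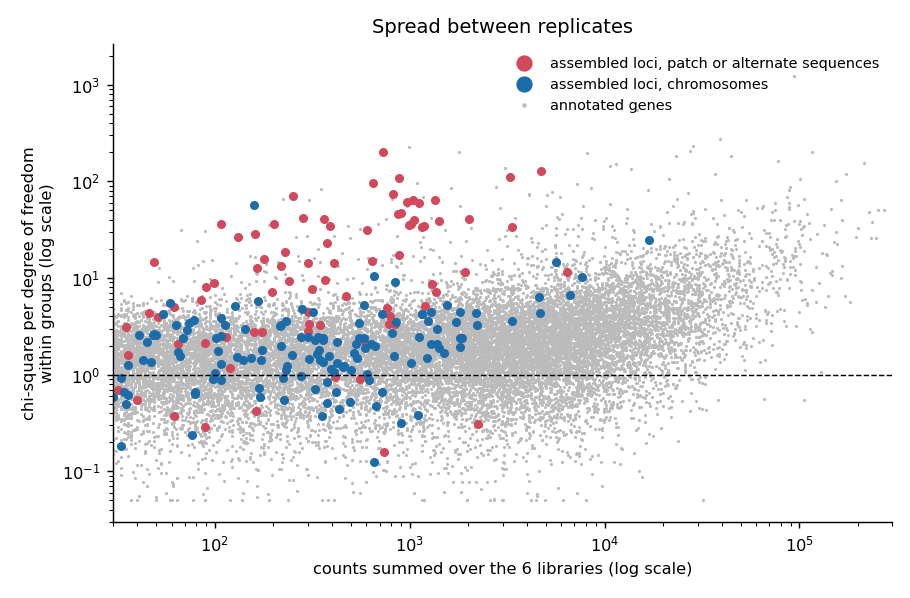
Chi-square of counts within groups per degree of freedom (log axis) against counts summed over the 6 libraries (log axis), for assembled loci on patch or alternate sequences (red), those on chromosomes (blue) and annotated genes (grey). The dashed line at 1 is counting error alone, and the median was 15.2 for patch loci of at least 100 counts and 1.96 for such loci on chromosomes.

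Single patch loci show how the spread looked. At locus 200, with a protein-L-isoaspartate methyltransferase domain, the counts were 499, 34 and 33 in cKO libraries and 66, 50 and 51 in Ctrl libraries, with cKO 1 alone high. At locus 145, with an inositol polyphosphate kinase domain, they were 84, 117 and 76 in cKO libraries and 426, 87 and 90 in Ctrl libraries, with the library labelled Ctrl 1 alone high. At locus 191 they were 151, 187 and 29 in cKO libraries and 30, 19 and 229 in Ctrl libraries. The high libraries thus differed between these loci, with cKO 1 among them at locus 200 and locus 191. By contrast locus 219 had 361, 350 and 408 counts in cKO libraries and 344, 352 and 420 counts in Ctrl libraries, with the groups overlapping and little spread within each. Of these 4 loci, locus 200 and locus 145 were picked after their values were seen. The sources used here do not say how reads that match both a patch and its chromosome were counted, so the level of a patch locus is uncertain.

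Among loci on chromosomes, those with domains of mobile elements did not pass the test. Retroviral domains (gag, pol, env or integrase) were named for 11, of which 8 were tested and 0 called by edgeR, with log2 fold changes from -0.66 to 0.52 and a median of 0.086. LINE-1 domains were named for 4, all tested and 0 called, with a median of 0.069. KRAB zinc finger domains, found in repressors of such elements, were named for 5, all tested and 0 called, with a median of -0.20. None of these 17 tested loci had an unadjusted p under 0.05 with edgeR, and DESeq2 and limma-voom also called 0 of them. With 3.95% of all tested genes called, so few loci say little about this class. At an unadjusted p under 0.05 there were 14 of 119 tested loci on chromosomes in all (11.8%), against 2981 of all 16928 tested genes (17.6%).

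The retroviral locus with the highest level was locus 96 on chromosome 4 (chr4:133095957-133101622, plus strand), unspliced, 5666 bases long and with gag, integrase and envelope domains of the murine leukaemia virus type. It had 589, 527 and 592 counts in the cKO libraries, against 577, 488 and 561 counts in the Ctrl libraries, so the groups overlapped (log2 fold change 0.09 ± 0.08 SE, edgeR adjusted p = 0.615). On the opposite strand, locus 98 shares 5620 bases of span with it and had 0 counts. A second retroviral locus, locus 77 on chromosome 19, had 56, 3 and 2 counts in cKO libraries and 83, 2 and 12 counts in Ctrl libraries. It was high in cKO 1 and in the library labelled Ctrl 1 and had the largest spread of the loci on chromosomes, at 57.5.

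A run of 7 loci lay within 1 stretch of chromosome 6 (chr6:47739847-47877170), around the Y RNA gene Rny3, and 3 of them were tested. On the minus strand, locus 118 had 66, 70 and 88 counts in cKO libraries and 51, 52 and 34 counts in Ctrl libraries. On the plus strand, locus 109 shares 16513 bases of span with it and had 36, 43 and 44 counts in cKO libraries and 40, 58 and 56 counts in Ctrl libraries (log2 fold change -0.30, edgeR adjusted p = 0.498). The sources used here do not say whether counting used the strand, so reads of loci on opposite strands cannot be told apart.

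Loci and their neighbours were set side by side where both were tested and within 5 kb, which gave 65 pairs. The locus had the lower FPKM in 58 of them, with a median of 0.190 times the level of the neighbour. The log2 fold changes had the same sign in 30 of 65 pairs and a Pearson r of 0.20 (Spearman rho 0.18), as a description of values that share the 6 libraries and 1 fit. In 3 pairs the neighbour was called, and in none of these the locus. Cdk9, the kinase of transcription elongation, had a log2 fold change of 0.37 (edgeR adjusted p = 0.00046), against 0.57 for locus 90, which lies 304 bases upstream on the same strand (adjusted p = 0.238). Adgrb2 stood at 0.20 (adjusted p = 0.0076) beside 0.18 for locus 97, and Tmem214 at 0.24 (adjusted p = 0.0281) beside 0.55 for locus 99 (adjusted p = 0.360).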

How the data were processed

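Total RNA was sequenced from 3 cKO and 3 Ctrl libraries. The tools named, per the submitters' processing notes, are featureCounts 1.5.0-p3, StringTie 1.3.3b and HISAT2 2.0.5, with build GRCm38. The sources used here give neither the annotation release nor the strand setting of the counting. The authors deposited raw counts per gene and FPKM, a count scaled by gene length and library total; the gene length is that of the deposited table. Members and lists were chosen with earlier results of these data known.

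Counts of all 54040 rows were fitted with edgeR 4.0.16 (R 4.3.3): filterByExpr by group (minimum count 10), TMM scaling, quasi-likelihood F test of group, Benjamini-Hochberg adjustment over 16928 tested genes, called under 0.05. The script was tested on simulated data. CPM is per 1000000 counts after TMM scaling, and 1 count was worth 0.0521 to 0.0595 CPM. Alternatives were RLE and upper-quartile scaling, no filter, a stricter filter of 1 CPM in 3 libraries, a replicate block, calls kept only at an absolute log2 fold change of at least 1, limma-voom and limma-trend (limma 3.58.1; log2 of FPKM plus 0.1 or 1), DESeq2 1.42.0, each library left out and, chosen after seeing the data, a fit without patch sequences. Intervals cover counting error only.

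Position was read from the coordinates of the table, with a gene within 5 kb as near. GENCODE M21 (GRCm38) held 53620 of the 53801 annotated identifiers, 52056 with the same start and end. RefSeq tables are of GRCm38.p6. Domain classes were formed from the Pfam names in the table after these were seen. Named by rule were the called loci, the 10 highest by FPKM, the 5 highest by CPM, the 5 smallest p not called, the 3 longest and the 3 shortest; others were picked after their values were seen. No genome sequence was used, so no sequence of a called locus is printed.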

Additional observations from a re-analysis of the deposited data

How the results depend on the processing

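The number of loci called was 5 (3 rose, 2 fell) and stayed at 5 with RLE or upper-quartile scaling and the stricter filter. It was 30 without a filter on low counts (13 rose, 17 fell), 6 with limma-voom (3 shared with the 5; locus 184, locus 202 and locus 216 were not), 4 with DESeq2 (1 fell; 3 shared, and locus 223 was not), 4 with the fold bound, 1 with limma-trend on FPKM at either pseudocount (1 rose, 0 fell) and 1 without patch sequences (1 rose, 0 fell). Leaving out 1 library gave 3 to 8 calls, with 2 to 4 that rose and 0 to 4 that fell: 3 without cKO 1, 8 without the library labelled Ctrl 1. The share of all tested genes called was worked out only for the main fit and the fit without patch sequences. Under the other settings the counts of loci thus have no background, and the shifts cannot be read as particular to the loci. The cause of these shifts was not tested. Counting overlap on the same strand only put 3 loci, not 5, inside an annotated gene.

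With the replicate number as a block, 10 loci were called (4 rose, 6 fell), again without a share over all tested genes to set beside them. Same-numbered libraries deviated from their group means with correlations of 0.101, 0.022 and 0.0075, and 2 of 6 libraries correlated best with their own number. With so few libraries these values cannot decide whether the numbers pair the libraries, and the labels do not say so.

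Of the 5 calls, locus 26 kept its call in 17 of 17 other settings, locus 218 in 13 of 16, locus 165 in 12 of 15, locus 207 in 8 of 16 and locus 177 in 7 of 15, with no adjusted p from DESeq2 for locus 165 and locus 177. Among the 22 named loci with a fitted change and Ythdf2, signs reversed at 5 loci and at Ythdf2, none of them called with all 6 libraries (Ythdf2 was without the library labelled Ctrl 1, adjusted p = 0.0095). At locus 156 the log2 fold change was -0.026 with the block, -0.078 with limma-voom and -0.071 and -0.048 on FPKM. At locus 159 it was -0.00063 with RLE, -0.0049 with upper-quartile scaling, -0.0044 without a filter, -0.0036 with the block, -0.011 with limma-voom and -0.015 and -0.011 on FPKM. Without 1 library the ranges were -0.37 to 0.40 (locus 156), -0.091 to 0.15 (locus 159), -0.24 to 0.036 (locus 54), -0.035 to 0.25 (locus 35), -0.12 to 0.066 (locus 42) and -0.29 to 0.069 (Ythdf2). Depth limits the 44 loci that had counts but too few for the test, and the 3 loci without counts were not tested either.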

Other observations

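Some assembled loci overlapped one another. On chromosomes 4 pairs did so on opposite strands and 2 on the same strand, and on patch sequences 12 pairs did so, all on opposite strands. On chromosome 9 locus 140 starts at the same base number as locus 149 on a patch, 124313914, the only such pair, with 0, 1 and 1 counts in cKO libraries and 1, 0 and 1 in Ctrl libraries for locus 140, and 1, 2 and 1 counts in cKO libraries and 1, 0 and 4 in Ctrl libraries for locus 149.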
